A study of Ovis aries with 6 samples.

Results

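The genes described here encode the translation elongation factors of the cytosol. The 6 members, EEF1A1, EEF1A2, EEF1B2, EEF1D, EEF1G and EEF2, were taken by their symbols, and all 6 were found among the 26067 features of the deposited tables. Full-length complementary DNA of 6 sheep (Ovis aries) pituitary samples was sequenced on Oxford Nanopore devices. The study set out to compare small-tailed Han sheep, a breed it calls high-reproduction, with Wadi sheep, which it calls low-reproduction, at 3 animals each. The libraries are named C1 to C6, and no label ties a library to a breed, an age or a sex. All 6 were therefore left without a group, no breeds were compared, and each library is given by itself with no replicates.

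During elongation, eEF1A brings each aminoacyl-tRNA to the ribosome in its GTP-bound form. The eEF1B complex then exchanges the spent GDP for GTP, with EEF1B2 and EEF1D encoding exchange subunits and EEF1G a structural subunit. eEF2, another GTPase, moves the ribosome on by a codon. EEF1A1 and EEF1A2 are separate genes for closely related forms of eEF1A. In mice Eef1a1 is expressed in most tissues, and Eef1a2 takes its place after birth in neurons and in heart and skeletal muscle. In mammals the messages of EEF1A1 and the other elongation factors belong to the TOP class, whose translation is governed together with that of the ribosomal proteins.

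The libraries held 1981644 to 2732911 gene counts, so that a single count was worth 0.366 to 0.505 counts per 1000000 gene counts (CPM). All intervals are at 95% and reflect counting error alone, because each library is a single sample. The reads were amplified and carry no molecular identifiers, so that they do not stand for independent molecules. The intervals can therefore be too narrow even for counting error. The labelled tissue was checked by its hormone genes. PRL, GH, CGA, LHB, FSHB, TSHB and POMC together reached 142071, 299657 and 47146 CPM in C4–C6 but only 139, 47.2 and 50.3 CPM in C1–C3. Summed levels of 10 general neuron genes were 5746 to 6085 CPM in C1–C3 and 497 to 1051 CPM in C4–C6, and 10 genes of cerebellar neurons stood at 4075 to 4468 CPM against 24.0 to 103 CPM. The libraries C1–C3 thus went against their tissue label, and results are also given without them.

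The eEF1A pair had opposite patterns. EEF1A1 stood at 1006, 1206 and 1483 CPM in C1–C3, and at 6339, 6014 and 7716 CPM in C4–C6. The lowest of the latter libraries was 4.06 times the highest of the former (95% interval 3.92 to 4.20). EEF1A2 was a low-count gene throughout, with 70, 78 and 77 counts in C1–C3 and only 6, 6 and 3 counts in C4–C6. On the CPM scale these were 30.0, 28.5, 29.1, 2.63, 2.48 and 1.51. The libraries in which EEF1A1 was low were thus those in which EEF1A2 was high, and the 3 higher libraries overlapped with the 3 lower ones for neither gene. Such a separation was common: 61.6% of the 13248 features with at least 60 counts over the libraries did not overlap between C1–C3 and C4–C6, 38.8% being higher in C1–C3 and 22.8% in C4–C6.

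Summed markers of immune cells also moved with EEF1A1, while those of fibroblasts did so in C4 and C6 but not in C5. The summed level of 5 immune cell genes was 117 to 148 CPM in C1–C3 and 399 to 706 CPM in C4–C6, and CD74, the invariant chain gene, ranged from 9.84 to 15.7 CPM and from 147 to 159.9 CPM. The sum of 5 fibroblast genes was 83.2 to 204 CPM in C1–C3, and 1439, 163 and 1041 CPM in C4–C6. None of these 10 genes was at 0 counts in any library, but some immune genes were low. Of the 5 immune genes, 2, 3 and 2 had at least 10 counts in C1–C3, and 5, 4 and 3 in C4–C6. CTSS alone held 109 of the 127 CPM of their sum in C1. Their part in the levels of EEF1A1, and of EEF1D described further on, was not tested.

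**Figure D1:**
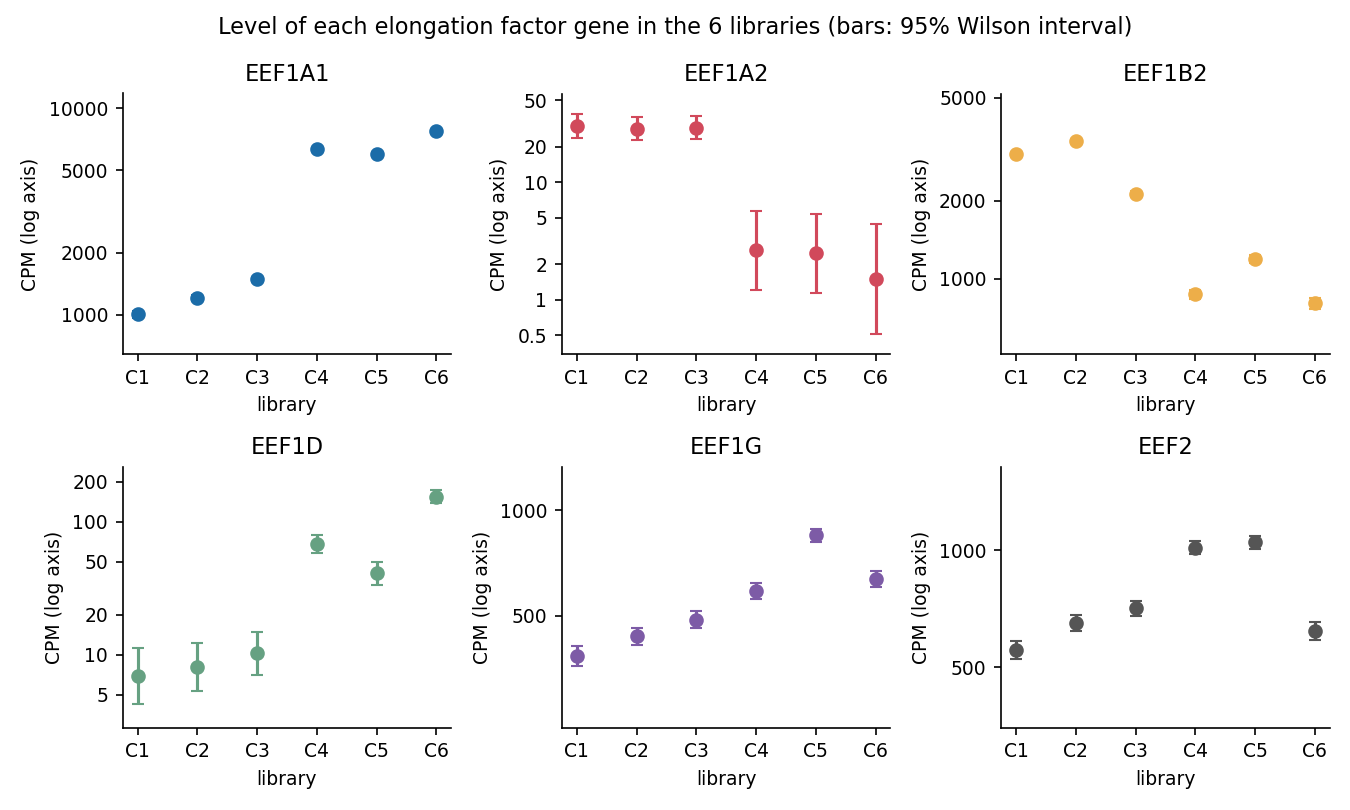
Level of each of the 6 genes in the libraries C1 to C6, as CPM on a log axis of its own in each panel, with 95% Wilson intervals. EEF1A2 and EEF1B2 have their 3 highest points in C1–C3, EEF1A1, EEF1D and EEF1G have theirs in C4–C6, and EEF1G and EEF2 vary least on this scale.

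On the CPM scale all 5 neighbouring steps in the order of EEF1A1, from C6 through C4, C5, C3 and C2 to C1, exceeded counting error, the smallest being C4 over C5 at 1.05 times (1.03 to 1.08). The order within C4–C6 depended on the scale. C5 was above C4 with edgeR's TMM factors, at 7409 against 6476, with DESeq2 size factors, at 7762 against 6552, without the hormone genes in the totals, at 8588 against 7389, and in the authors' TPM (transcripts per 1000000, scaled by length), at 1617 against 1592. The order of C3, C2 and C1, and their place below C4–C6, was the same on all 5 scales. For EEF1A2 the only step between neighbours beyond counting error was that from C2 down to C4, at 10.9 times (4.77 to 30.5). C1–C3 were not told apart from each other, nor were C4–C6. The highest library exceeded the lowest 7.67 times for EEF1A1 (7.34 to 8.01) and 19.8 times for EEF1A2 (6.51 to 98.5), the latter resting on the 3 counts of C6. Without C6 it was 12.1 times, and in TPM 12.2 times.

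The make-up of the eEF1A pair does not depend on how a library is scaled, because both genes are counted in the same library. EEF1A2 made up 2.90% of the EEF1A1 and EEF1A2 counts in C1 (95% Wilson interval 2.30 to 3.64%). In C2 it made up 2.31% (1.86 to 2.88%), and in C3 1.93% (1.54 to 2.40%). The share was 0.0414% in C4 (0.0190 to 0.0903%), 0.0412% in C5 (0.0189 to 0.0899%) and 0.0196% in C6 (0.00667 to 0.0577%). EEF1A1 was therefore the main form in every library, including those with high neuron markers. Per length, in the authors' TPM, there were 35.4, 44.8 and 53.4 EEF1A1 transcripts for each of EEF1A2 in C1–C3, and 2519, 2605 and 5196 in C4–C6. The count ratio of EEF1A2 to EEF1A1 differed 152-fold between C1 and C6 (95% interval 49.9 to 755). Without C1–C3 the highest and lowest ratios differed 2.11-fold, on 3 to 6 EEF1A2 counts a library, and among C1–C3 they differed 1.52-fold.

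**Figure D2:**
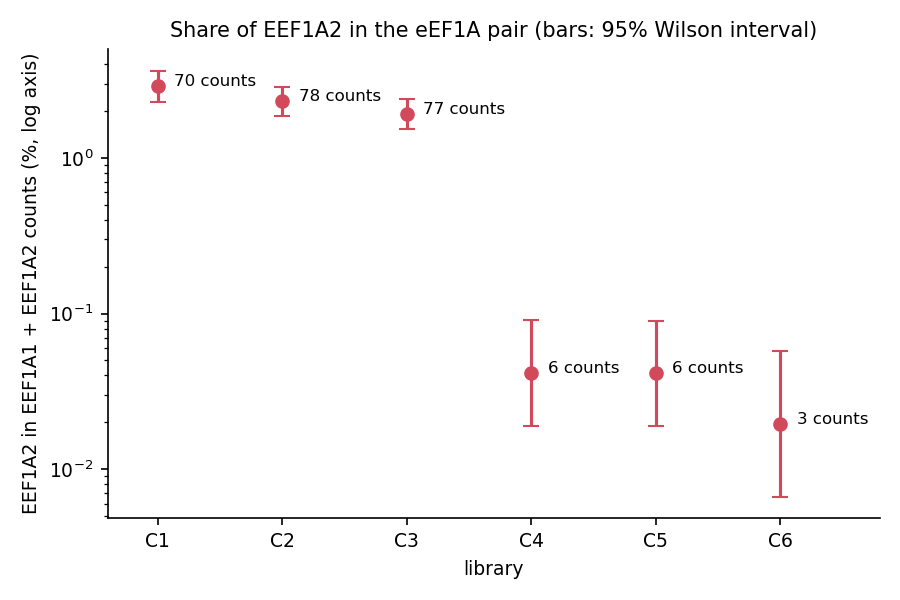
Share of EEF1A2 in the summed counts of EEF1A1 and EEF1A2 in each library, in percent on a log axis, with 95% Wilson intervals and the EEF1A2 counts beside the points. The share lies between 1.93 and 2.90% in C1–C3 and between 0.0196 and 0.0414% in C4–C6.

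Markers of the cell types known to use EEF1A2 moved with it in part. The neuron and cerebellar neuron sums given above were high in the same 3 libraries as EEF1A2, and their part in its level was not tested. In bulk tissue, fewer cells of a type and less RNA per cell cannot be told apart. Striated muscle, the other tissue known for EEF1A2, was close to absent by its markers: of 13 marker genes in the tables, 7 to 10 had 0 counts in each library. CKM, MYH1, MYH2, TNNT3, TNNI2 and MYL1, genes of the muscle enzyme and contractile apparatus, had 0 counts in all 6 libraries. The summed level of the list was 10.7 to 38.6 CPM apart from C4, where it was 637 CPM. Of that sum, 621 CPM came from DES, the gene of desmin, which smooth muscle also expresses, and EEF1A2 had 6 counts there.

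The subunits of the exchange complex did not share a pattern. EEF1B2, the gene of the smaller exchange subunit, was at 3032, 3399 and 2127 CPM in C1–C3 and at 869, 1196 and 804 CPM in C4–C6. It thus ran opposite to EEF1A1, whose product its protein recharges, with the lowest of C1–C3 above C5 by 1.78 times (95% interval 1.70 to 1.86). In TPM this separation was lost, as C5, at 865, was above C3, at 766. EEF1D, the gene of the other exchange subunit, had 16, 22 and 27 counts in C1–C3 and 156, 99 and 306 counts in C4–C6. Its levels of 6.86, 8.05, 10.2, 68.3, 40.9 and 154 CPM followed the direction of EEF1A1. C6 exceeded C1 22.5 times for EEF1D (13.6 to 39.9), and C2 exceeded C6 4.23 times for EEF1B2 (4.01 to 4.46). C1–C3 were not separated from each other for EEF1D, at 1.17 and 1.27 times between neighbours with intervals reaching below 1.

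C6 also stood above the other libraries with hormone genes for EEF1D, at 2.26 times C4 (95% interval 1.86 to 2.76) and 3.77 times C5 (3.00 to 4.78). That library differed from C4 and C5 in the myelin marker MOG too. MOG was at 238 CPM in C6, 1.31 CPM in C4 and 0.413 CPM in C5, and its part in the EEF1D level was not tested. With C6 left out, the highest and lowest libraries of EEF1D, C4 and C1, differed 9.95-fold.

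On the CPM scale EEF1G and EEF2 varied least, whereas in TPM EEF1B2 did, at a ratio of 2.37 against 5.61 for EEF1G and 4.79 for EEF2. EEF1G, the gene of the structural subunit, was at 383, 437, 487, 587, 849 and 636 CPM in the order C1 to C6, a ratio of 2.22 between C5 and C1 (95% interval 2.05 to 2.40). EEF2, the gene of the translocase, was at 554, 650.2, 709.9, 1015.5, 1049 and 620.2 CPM, a ratio of 1.89 between the same libraries (1.77 to 2.03). C6 fell between C1 and C2 for EEF2 but above C3 for EEF1G, so that on the CPM scale C4–C6 did not stand together for EEF2. With edgeR's TMM factors C6, at 636, lay just above C3, at 632, and in TPM it was at 64.8 against 48.4, so this order depends on the scale. The steps from C5 to C4 and from C2 to C6 in EEF2 were within counting error, at 1.03 (0.976 to 1.09) and 1.05 times (0.974 to 1.13). In the ratio of EEF1G to EEF2 the libraries differed 1.78-fold (1.60 to 1.97), the smallest difference among the 15 pairs of members.

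Of the 6 members, 5 were past a ratio of 2 between the highest and the lowest CPM, all but EEF2. EEF2 was past it on the other 4 scales, at 2.49 with TMM factors, 2.64 with DESeq2 size factors, 2.70 without the hormone genes and 4.79 in TPM. EEF1G was not past it without C1, at 1.94, or without C5, at 1.66. Of the 13248 features that reached 60 counts in all libraries together, 84.9% were past it and the median ratio was 4.31, against 5.95 for the members. The members' count therefore does not stand out from the other features. Without C1–C3, EEF1D was past the ratio of 2, 4 other members were not, and EEF1A2 had too few counts, while 41.1% of features were past it. Among C1–C3 alone, 0 of 6 members were past it, while 12.1% of features were. EEF1A1 had a ratio of 1.28 among C4–C6, and of 1.47 among C1–C3.

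Pairs of members were set against each other in the authors' TPM, which is scaled by length. In TPM, EEF1B2 was the highest member in C1–C3, at 867, 1049 and 766, with EEF1A1 at 107, 138 and 198. In C4–C6 EEF1A1 led, at 1592, 1617 and 1580, with EEF1B2 at 588, 865 and 443. The lowest place changed hands as well. EEF1D, at 1.21, 1.65 and 2.11 TPM, was below EEF1A2, at 3.02, 3.09 and 3.71 TPM, in C1–C3, whereas EEF1A2, at 0.632, 0.621 and 0.304 TPM, was below EEF1D, at 30.9, 18.0 and 58.4 TPM, in C4–C6. In TPM EEF1G came next after the leading pair in all 6 libraries, followed by EEF2. This order depended on the scaling by length, which CPM lacks. In CPM EEF2 was above EEF1G in C1–C5, at 554 against 383 in C1. It was also above EEF1B2 in C4, at 1015.5 against 869.

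EEF1B2 made up 81.8, 81.1 and 69.5% of the summed TPM of the 6 genes in C1–C3 and 23.2, 29.5 and 19.2% in C4–C6. EEF1A1 made up 10.1, 10.7 and 18.0% in the first 3 libraries named and 63.0, 55.1 and 68.3% in the others. EEF1G took 4.89 to 9.90% and EEF2 2.80 to 5.14% over the 6 libraries. EEF1D reached 2.53% in C6 and at most 1.22% elsewhere, and EEF1A2 did not exceed 0.337%. These shares rest on the scaling by length. Without it, EEF1B2 had 3032 of the 5012 CPM of the 6 genes in C1, a smaller part than its 81.8% in TPM.

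**Figure D3:**
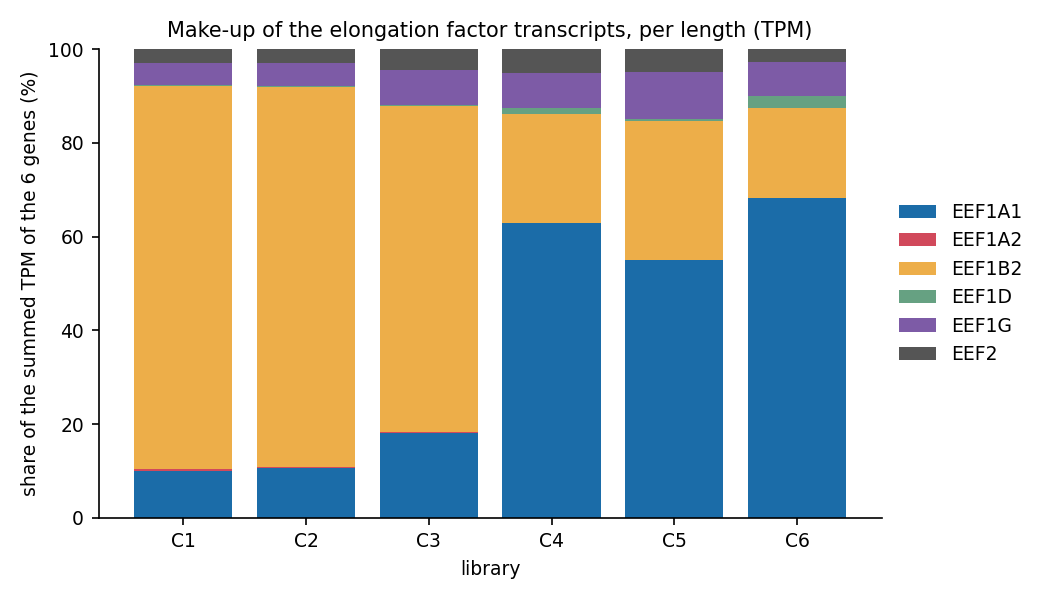
Make-up of the summed TPM of the 6 genes in each library, as stacked bars in percent. EEF1B2 takes 69.5 to 81.8% in C1–C3, and EEF1A1 takes 55.1 to 68.3% in C4–C6.

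Within a library these TPM ratios do not depend on how the library is scaled, though they do depend on the scaling by length. Several moved widely. EEF1A1 stood at 0.123, 0.132 and 0.259 transcripts per EEF1B2 transcript in C1–C3, and at 2.71, 1.87 and 3.57 in C4–C6. The underlying count ratio differed 28.9-fold between C6 and C1 (95% interval 27.0 to 31.0). The exchange subunits differed further: there were 717, 636 and 362 EEF1B2 transcripts per EEF1D transcript in C1–C3, and 19.0, 48.0 and 7.58 in C4–C6. Their count ratio differed 84.9-fold between C1 and C6 (51.2 to 151). The widest difference among all pairs of members was in EEF1A2 per EEF1D. That count ratio differed 446-fold between C1 and C6 (121 to 2333), on 3 EEF1A2 counts in C6. EEF1B2 per EEF1G ran from 16.7 in C1 to 2.67 in C6, and was close together in C4–C6, where the count ratios differed 1.17-fold. EEF1A1 per EEF2 was 3.56, 3.64 and 4.10 in C1–C3, and 12.2, 11.2 and 24.4 in C4–C6.

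Ratios across libraries also depend on how each library is scaled, which these ratios within a library do not. The TPM of a feature was a median of 0.255, 0.272 and 0.307 times its CPM in C1–C3, but 0.532, 0.559 and 0.407 times in C4–C6, among 4375 features with at least 500 counts. TPM thus raised all members in the latter libraries relative to the former. On that scale the ratio of highest to lowest library rose from 7.67 to 15.1 for EEF1A1, from 22.5 to 48.3 for EEF1D, from 2.22 to 5.61 for EEF1G and from 1.89 to 4.79 for EEF2. It fell from 4.23 to 2.37 for EEF1B2, and C5, at 865 TPM, then lay just below C1, at 867 TPM, and above C3, at 766 TPM. In TPM all 6 members were past a ratio of 2, as were 91.5% of features, a share that includes those at 0 TPM in a library.

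The hormone genes, which took 30.0% of the counts of C5 and 14.2% of those of C4, lower the CPM of every other gene there. With hormone genes left out of the totals, EEF2 was at 1184, 1498 and 651 CPM in C4–C6, and its ratio of C5 to C1 was 2.70. EEF1A1 was then highest in C5, at 8588 CPM, not in C6, at 8098 CPM. With edgeR's TMM factors, between 0.812 for C5 and 1.12 for C3, the ratio was 8.40 for EEF1A1, 3.84 for EEF1B2, 2.92 for EEF1G and 2.49 for EEF2. The highest library was the same on all 5 scales for EEF1B2 (C2), EEF1D (C6), EEF1G and EEF2 (C5). It moved from C6 to C5 for EEF1A1 in TPM and without hormone genes, and from C1 to C3 for EEF1A2 in TPM. The lowest library was the same on all 5 scales for every member.

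**Figure D4:**
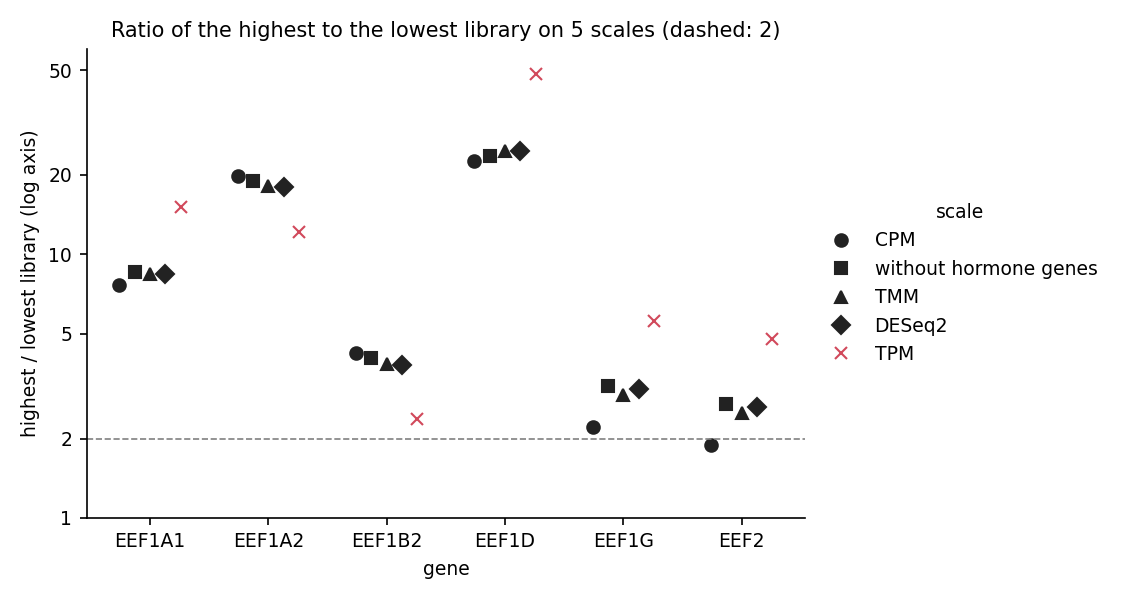
Ratio of the highest to the lowest library for each gene on 5 scales, on a log axis: CPM, CPM without the hormone genes in the totals, TMM, DESeq2 size factors and the authors' TPM (red crosses). TPM gives higher ratios for EEF1A1, EEF1D, EEF1G and EEF2 and lower ones for EEF1A2 and EEF1B2, and the dashed line marks a ratio of 2.

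The deposited values also differ in how the members were counted. Estimated counts of EEF1D were whole numbers in all 6 libraries and those of EEF1A2 in 4 of 6, while those of EEF1A1, EEF1B2 and EEF2 were whole in none. Those of EEF1G were whole in C4–C6 and not whole in C1–C3, the same split as that of its levels. How values that are not whole came about is not given in the sources used here. EEF1A1 has many processed copies in mammalian genomes, and near-identical copies of it or of EEF1B2 could have taken some of its reads, so these counts are uncertain to that extent. Features listed without a symbol were not searched for such copies.

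The length behind the TPM of a gene follows from its counts per TPM. Relative to EEF1A1, it was 0.371 for EEF1B2, 0.785 for EEF1G and 1.96 for EEF2 in every library, and 1.02 to 1.07 for EEF1A2. For EEF1D it ranged from 0.541 in C6 and 0.555 in C4 to 0.602 in C1 and 0.646 in C3, with 0.560 in C2 and 0.611 in C5. EEF1D was thus the member whose average transcript length differed most between libraries, and C1 to C3 rest on 16 to 27 counts. In human and mouse this gene also has a longer form, found in brain and testis. The tables hold genes, not isoforms, so which forms were read is not analysed here.

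The genes with the most similar profiles differed among EEF1A1, EEF1A2 and EEF2. Likeness was the root mean square difference of log2(CPM + 1), each gene centred on its mean over the 6 libraries, among 2612 named genes with a median of at least 50 CPM. The nearest to EEF1A1 was CAPNS1, the small calpain subunit gene, at 0.08 log2 units, with 15.9, 20.1, 21.2, 98.5, 102 and 130 CPM from C1 to C6. MAGT1 (0.18), CD63 (0.21), PSMG4 (0.24) and RPS6 (0.24), a ribosomal protein gene, followed. These were all low in C1–C3, like EEF1A1, and RPS6 was at 369, 376, 607, 2156, 2363 and 1910 CPM.

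The nearest to EEF1A2 was GABBR2, a GABA-B receptor subunit gene, at 0.17 log2 units, with 244, 240, 224, 23.2, 21.9 and 22.2 CPM. It was followed by KCTD17 (0.18), PRUNE2 (0.19) and the potassium channel partner gene KCNIP4 (0.22). EEF1A2 itself had a median of 15.6 CPM, under the minimum set for the other genes. Its levels in C4–C6 rested on 3 to 6 counts, and the 1 CPM added before log2 narrowed its range more than theirs. For EEF2 the nearest were SRSF3, a splicing factor gene, OAZ2 and PFN2, each at 0.07 log2 units, then the ribosomal protein genes RPS24 (0.09) and RPL7A (0.11). Between members, EEF2 and EEF1G were 0.26 apart, EEF1A1 and EEF1D 0.54, EEF1A1 and EEF1B2 2.06 and EEF1A1 and EEF1A2 2.87.

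The rest of the translation apparatus was described by 6 lists, with levels in CPM. Of 80 measured genes in them, 55 were past a ratio of 2, or 68.8% against the 84.9% of all features. Their median ratio was 2.59, below the 4.31 of all features and the 5.95 of the members. The gap between the shares was smaller with edgeR's TMM factors, where 62 of the 80 genes were past the ratio, with 83.8% of features. With a minimum of 300 counts 39 of 60 genes were past it, with 77.5% of features. Of the 55 genes, 5, 4 and 2 were highest in C1–C3, and 18, 15 and 11 in C4–C6. These 44 genes of C4–C6 make up 80.0% of the 55, while 47.2% of all features past the ratio were highest there.

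Of the other genes of cytosolic elongation and of the enzymes that modify its factors, 10 of 12 measured were past the ratio. EIF5A, a factor that helps the ribosome over difficult peptide bonds, was at 1.72, 2.56, 4.92, 26.7, 37.2 and 32.8 CPM, or 21.7 times higher in C5 than in C1 (95% interval 8.18 to 81.3). EEF2K, the kinase that inactivates eEF2, was at 14.6, 16.1, 14.8, 15.3, 4.13 and 19.2 CPM, and was low in C5 alone, on 10 counts. DPH7, which takes part in making the diphthamide residue of eEF2, ranged from 28.9 CPM in C4 to 63.5 CPM in C1. EEF1E1, a gene related to the eEF1B subunits whose protein sits in the tRNA synthetase complex, ranged from 29.3 to 47.7 CPM, a ratio of 1.63.

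Mitochondrial elongation, which uses separate factors, had 3 of 5 measured genes past the ratio. TUFM, the mitochondrial counterpart of eEF1A, was at 225, 217, 223, 89.7, 77.7 and 112 CPM, higher on this scale in the libraries where EEF1A1 was lower. TSFM, its exchange factor, ranged from 62.0 to 102 CPM (ratio 1.64), and GFM2, a ribosome recycling factor, from 3.50 to 10.6 CPM (ratio 3.03).

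Of the termination and recycling genes, 3 of 8 measured were past the ratio, the lowest share among the lists. ETF1, which reads stop codons, was highest in C4 at 105 CPM and lowest in C1 at 41.2 CPM, and DENR, a reinitiation factor, ranged from 3.86 to 9.92 CPM. NEMF, of ribosome quality control, ranged from 39.3 to 78.0 CPM, a ratio of 1.99.

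Of the initiation factor genes, 24 of 36 measured were past the ratio. EIF1, which guards start codon choice, was at 137, 156, 156, 569, 639 and 538 CPM, and EIF5 at 328, 386, 429, 351, 270.3 and 472 CPM. The largest ratios were those of EIF4EBP1, the repressor of the cap-binding protein, at 11.7 between C4 and C1 (95% interval 5.13 to 33.1), and of the helicase gene EIF4A1, at 8.37 between C4 and C2 (5.02 to 14.9).

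Of other TOP mRNAs, 7 of 9 were past the ratio, and all 7 were highest in C4–C6, as were 47.2% of all features past it. RACK1, a protein of the small ribosomal subunit, was at 269, 286, 351, 743, 922 and 546 CPM, and TPT1 at 304, 360, 121, 474, 467 and 460 CPM. FAU, which encodes a ribosomal protein fused to a ubiquitin-like one, ranged only from 1298 to 1710 CPM. EEF1B2 differed in its direction from these 7 genes.

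Of the tRNA synthetase complex genes, 8 of 10 measured were past the ratio. EPRS1 was highest in C5 at 50.8 CPM and lowest in C1 at 8.15 CPM, and KARS1 ranged from 20.9 to 94.6 CPM. RARS1 ran the other way on this scale, from 328 CPM in C2 to 140 CPM in C6. VARS1, the synthetase that binds the eEF1B complex, was under the minimum of 60 counts.

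**Figure D5:**
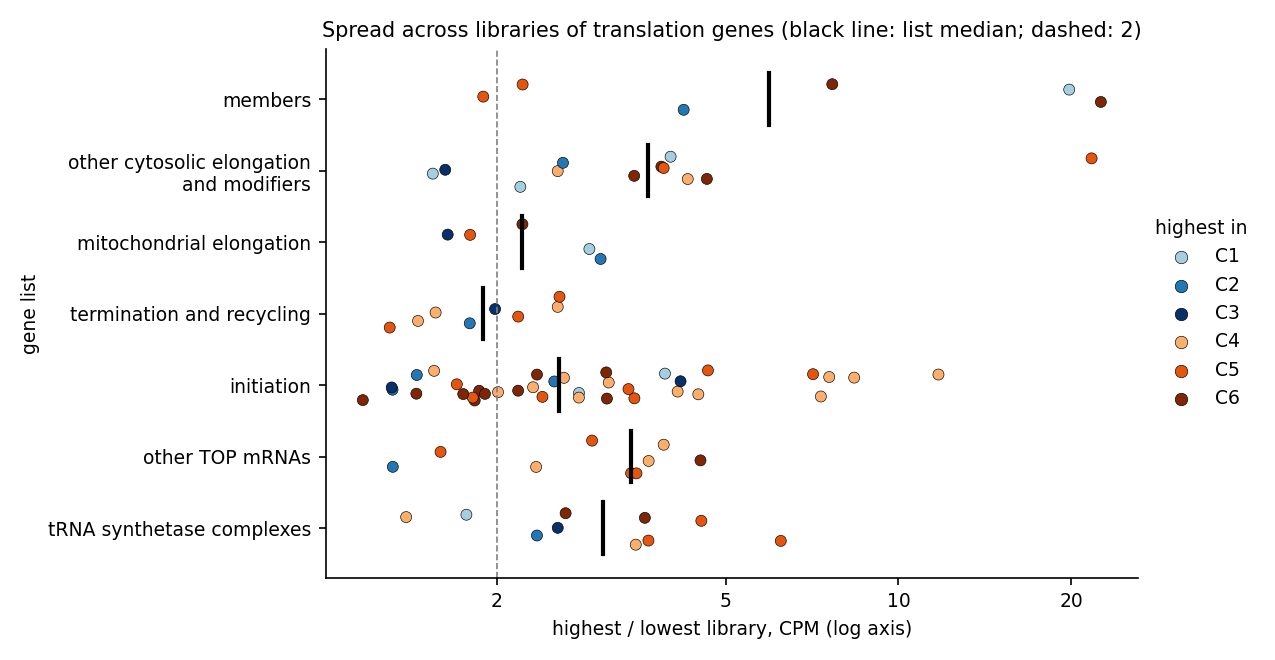
Ratio of the highest to the lowest CPM for each measured gene of the members and of 6 lists of translation genes, on a log axis, coloured by the library where the gene is highest. Black lines are list medians (5.95 for the members, 1.89 for termination and recycling), and the dashed line marks a ratio of 2.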

How the data were processed

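Per the labels, libraries were made from total RNA with Oxford Nanopore kits that include an amplification step, and minimap2 2.17-r941 was the aligner per the submitters' processing notes. How genes were quantified, on which build and annotation, is not given in the sources used here. The authors deposited estimated counts and TPM per gene in tables of 26071 rows, of which 4 rows of annotation text were left out. Estimated counts were rounded to whole numbers, and CPM was the count over the library's total. The deposited TPM were used as given, and each library sums to 1000000.

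No library has a group, so no test between groups was fitted. Shares and levels have Wilson intervals, library ratios have Clopper-Pearson intervals conditional on the summed count, and gene ratios conditional odds ratio intervals (scipy 1.17.1). A feature was measured at 60 counts over the libraries and called at a ratio of 2, with counts under 3 set to 3. Scaling factors came from edgeR 4.0.16 and DESeq2 1.42.0. In each list the 2 genes with the highest median CPM and the 2 with the largest ratio were named, besides 5 nearest profiles for EEF1A1, EEF1A2 and EEF2. The paralogs in the closing section were picked with their values in view. Members and lists were chosen with earlier results of these data known. Some genes that these rules select are left out of the text. EEF1AKMT4 and EIF3C were not analysed here, nor were SYP, MYH7, MBP and MOBP.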

Additional observations from a re-analysis of the deposited data

How the results depend on the processing

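Without C1–C3, 1 member and 10 of the other translation genes were past a ratio of 2, with 41.1% of features. The count ratio of EEF1A2 to EEF1A1 then differed 2.11-fold. Without C4–C6 there were 0 members and 2 other genes past it, with 12.1% of features, and the count ratio differed 1.52-fold. The cause was not tested. At a ratio of at least 3, 33 other translation genes were past it, with 65.0% of features. Leaving out a single library gave 4 to 5 members and 48 to 53 other genes, with 77.6 to 81.9% of features. The EEF1A pair then differed 72.4 to 152-fold, the lowest without C6. EEF1G was not past a ratio of 2 without C1, at 1.94, or without C5, at 1.66. With a minimum of 300 counts EEF1A2 was not measured and 4 members were past the ratio, with 77.5% of features. Other scalings, unrounded or thinned counts and TPM gave 5 to 6 members and 55 to 68 other genes, with 83.8 to 91.5% of features. No paired analysis was possible because the libraries have no groups. The absence of replicates, the tissue label of C1–C3 and the 3 to 6 EEF1A2 counts of C4–C6 limit these results.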

Other observations

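Of 3 pairs of initiation factor paralogs, picked with their values in view, 1 had opposite patterns on the CPM scale. EIF4G2, a scaffold of non-canonical initiation, was at 51.0, 37.0, 53.7, 197, 262 and 228 CPM from C1 to C6, while EIF4G3, a scaffold of cap-dependent initiation, was at 199, 149, 144, 59.5, 50.8 and 72.2 CPM. For the helicase pair both genes were higher in C4–C6, with EIF4A1 at 10.3, 6.22, 11.4, 52.1, 40.9 and 26.2 CPM and EIF4A2 at 234, 188, 225, 399, 653 and 347 CPM. EIF1 ranged 4.66-fold and EIF1B 1.86-fold. Among the enzymes that methylate eEF1A on lysine, EEF1AKMT1 was at 73.8, 62.6, 39.4, 18.4, 19.8 and 20.7 CPM, and EEF1AKMT2 was highest in C6 at 47.9 CPM and lowest in C5 at 12.4 CPM.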
